A study of Mus musculus with 6 samples.

Results

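The 35 genes described here are interferon-stimulated genes, whose transcripts accumulate when a cell senses type I or type II interferon. They were chosen by symbol from a list of well-known members, and all 35 were found among the 23228 genes with a deposited value. RNA was sequenced from LSK cells, a marrow fraction without lineage markers that carries Sca-1 and c-Kit and contains blood stem cells and early progenitors. Wild-type donor LSK cells carrying the Ly5.1 form of CD45 were transplanted into Ly5.2 recipients on the C57BL/6 background and were sorted back after 8 weeks. In 3 libraries the recipients were wild type (WT) and in the other 3 they lacked the adhesion molecule ICAM-1 (ICAM-1-/-), so both groups share wild-type donor cells and differ by the genotype of the host. The sources used here do not state the age, sex or conditioning of the recipients, or whether animals were pooled. Values are FPKM, fragment counts scaled to transcript length and library total, which allow comparison between genes but carry no read depth. Where a triplet is printed for each host genotype, it runs from replicate 1 to 3.

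Interferons bind paired receptor chains on the cell surface, and the receptors activate Janus kinases that phosphorylate transcription factors. Type I interferon assembles a complex with Stat2 and Irf9 that binds the interferon-stimulated response element, while type II interferon acts through the gamma-activated site. The genes induced encode antiviral effectors, sensors of foreign nucleic acid and feedback regulators such as Usp18. In hematopoietic stem cells interferon is known for driving dormant cells into cycle, and stem cells are known to hold part of this gene set at a basal level.

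Several libraries stood apart before any group comparison. Replicate 1 of each group carried the female transcript Xist at 241 FPKM (WT) and 73.5 FPKM (ICAM-1-/-), against at most 0.153 FPKM in the remaining 4 libraries. WT replicate 1 had 39.6% of the 10477 tested genes at 0, against 10.7% and 10.2% in ICAM-1-/- replicates 1 and 2 and 0.735% to 1.82% elsewhere, so a 0 is given here only as a value listed at 0. Gapdh, an abundant enzyme of glycolysis, was listed at 0 in WT replicate 1 and stood at 8.94 FPKM in ICAM-1-/- replicate 1, and was between 407 and 909 FPKM elsewhere. Scarna2, a small Cajal body RNA, took 63.9% and 43.1% of all FPKM in these libraries and 9.53% to 26.7% in the remaining 4. Library size factors, computed from genes above 0 in every library, lay between 0.963 and 1.38 except for ICAM-1-/- replicate 2, at 0.410. Of the sorting markers, Kit was between 6.88 and 44.7 FPKM in all 6 libraries, while Ly6a (Sca-1) was listed at 0 in WT replicate 1 and stood at 12.4 to 91.8 FPKM in the others. Icam1 itself, deleted in the hosts and not in the donor cells, stood at 7.97 to 26.4 FPKM across WT hosts and 10.9 to 32.1 FPKM across ICAM-1-/- hosts.

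Matches to the response element were common in the promoters of these genes. RefSeq promoter windows (GRCm38.p6, from 250 bases before to 50 bases after a gene's start) were matched by symbol for 27 of the 35 genes. These genes had 31 windows, and in 25 of them the last 40 bases lay in a transcript of the gene. Positions from the start are less certain for the other windows. The response element was searched on both strands as GAAA, any pair of bases, then GAAA, and 17 of the 27 genes (63%) held at least 1 match, against 3.99% of the 27025 genes with a window. The gamma-activated site was searched as TTCNNNGAA, which reads the same on both strands, and 6 of 27 genes (22.2%) held it, against 9.55% of all genes. Of the 27 response element matches, 22 began within 150 bases upstream of the start. A match is a description of letters in a window and does not show that a factor binds there. The 4 windows below, chosen after the values were seen, belong to the gene that was furthest down in ICAM-1-/- replicate 2 (Bst2), a GTPase gene with both motifs (Igtp), a gene with both motifs that moved little in that library (Oas1a) and the tested gene that was higher there (Ifit2). They are written 5′ to 3′ along the gene, with capitals on motif matches. In Bst2 the gamma-activated site runs into a pair of overlapping response elements, in Igtp the site and the element are separated by a pair of bases, and in Oas1a a pair of overlapping elements lies just upstream of the start. The Ifit2 window has a gamma-activated site near its far end and no match to the response element as spelled here.
Bst2, chr8:71537423-71537722, - strand: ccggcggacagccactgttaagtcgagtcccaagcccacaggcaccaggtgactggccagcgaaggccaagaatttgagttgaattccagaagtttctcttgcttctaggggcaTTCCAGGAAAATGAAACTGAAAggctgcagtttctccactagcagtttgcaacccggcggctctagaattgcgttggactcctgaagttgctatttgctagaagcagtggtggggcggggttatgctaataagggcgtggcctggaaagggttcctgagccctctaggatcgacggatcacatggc
Igtp, chr11:58199306-58199605, + strand: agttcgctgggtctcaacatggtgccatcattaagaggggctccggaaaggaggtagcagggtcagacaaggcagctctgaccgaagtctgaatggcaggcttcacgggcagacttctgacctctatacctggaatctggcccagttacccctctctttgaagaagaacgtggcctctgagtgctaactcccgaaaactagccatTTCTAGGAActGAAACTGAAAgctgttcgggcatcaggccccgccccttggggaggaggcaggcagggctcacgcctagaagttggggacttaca
Oas1a, chr5:120907476-120907775, - strand: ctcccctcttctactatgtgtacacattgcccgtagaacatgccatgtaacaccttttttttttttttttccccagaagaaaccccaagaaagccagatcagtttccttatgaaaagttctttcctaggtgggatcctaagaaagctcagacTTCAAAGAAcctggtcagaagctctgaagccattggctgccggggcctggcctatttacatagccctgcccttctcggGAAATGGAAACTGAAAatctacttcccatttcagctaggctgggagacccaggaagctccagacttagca
Ifit2, chr19:34550444-34550743, + strand: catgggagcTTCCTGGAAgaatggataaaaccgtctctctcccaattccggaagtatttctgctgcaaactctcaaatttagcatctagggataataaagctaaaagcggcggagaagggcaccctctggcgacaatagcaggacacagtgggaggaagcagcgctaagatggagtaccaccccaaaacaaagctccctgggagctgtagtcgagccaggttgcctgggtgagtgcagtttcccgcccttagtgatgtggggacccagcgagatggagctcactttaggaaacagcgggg

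**Figure D1:**
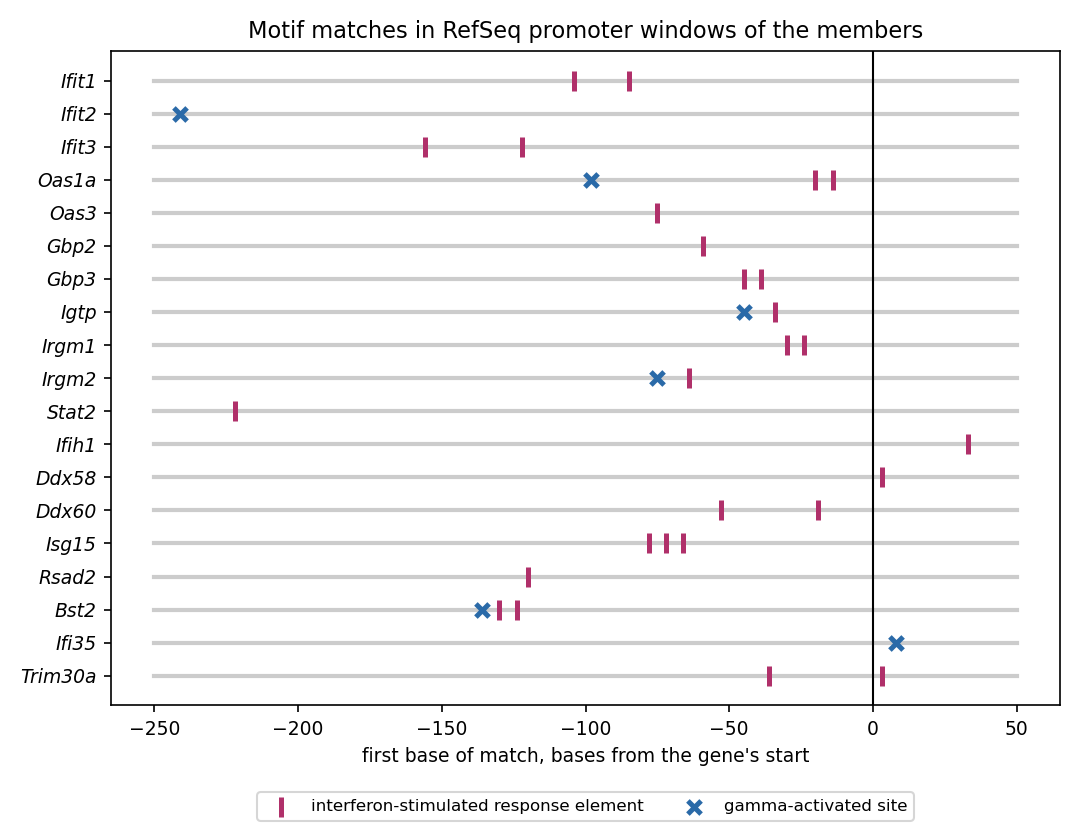
Positions of motif matches in the promoter windows of the 19 genes with any match, in bases from the gene's start (horizontal axis; negative is upstream, the vertical line is the start). Bars are response element matches and crosses are gamma-activated sites, and 22 of 27 response element matches begin within 150 bases upstream.

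No interferon-stimulated gene differed by host genotype beyond the spread between libraries. Requiring an average of 1 FPKM or more kept 30 of the 35 genes. Of these, 0 passed an adjusted p of 0.05 in limma's moderated test on log2(FPKM + 1), and 0 had an unadjusted p under 0.05. The background was as empty: 0 of 10477 genes (0%) passed the adjusted threshold, and 54 (0.515%) had an unadjusted p under 0.05. The log2 differences, ICAM-1-/- minus WT, were positive for 15 genes and negative for 15, with a median of -0.04 beside 0.08 for all tested genes. They ranged from -1.46 to 1.87, with standard errors of 0.82 to 1.20, so that a difference of 1 log2 unit lay close to its own error. Mx2 alone of the 30 had groups that did not overlap, with WT higher, where 4.08% of all tested genes did so in either direction and 0.849% with WT higher.

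The direction of the set depended on which library entered the fit. Without ICAM-1-/- replicate 2 the log2 difference was positive for 25 of 30 genes, beside 7580 of all 10477. The medians were 0.60 and 0.46 for all genes. Without ICAM-1-/- replicate 1 it was negative for 20 of 30, beside 5200 of all 10477, with a median of -0.49 beside 0.00 for all genes. Within replicates 2 and 3 of both groups 23 of 30 were negative, beside 7239 of all 10477, with a median of -0.39 beside -0.30. In that subset 0 of the 30 genes passed (3 of all tested genes did, 0.0286%), and 0 had an unadjusted p under 0.05 where 1.5% of all genes did. With the replicate number as a block 0 of the 30 genes passed as well, against 13 of all genes (0.124%). The same held with library weights (0.0382% of all genes called) and without ICAM-1-/- replicate 1 (0.00954%).

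**Figure D2:**
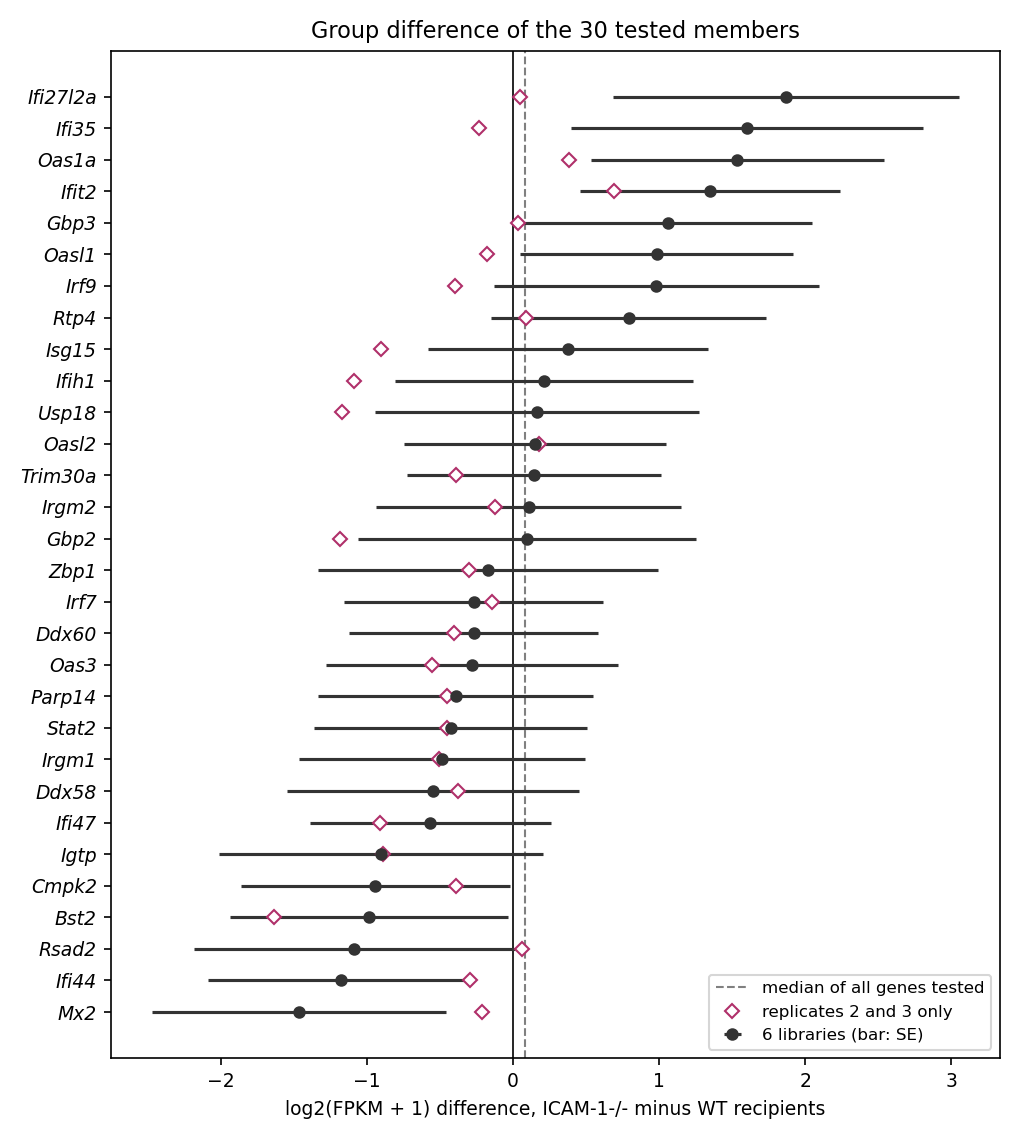
Difference between groups on the log2(FPKM + 1) scale (horizontal axis, ICAM-1-/- minus WT) for the 30 tested genes. Filled points with bars are the estimate and its SE from 6 libraries, open diamonds are the same difference within replicates 2 and 3, and the dashed line is the median of all tested genes at 0.08. The estimates run from -1.46 (Mx2) to 1.87 (Ifi27l2a), and most bars cross 0.

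The levels themselves set a few genes apart from the rest. The average was 10 FPKM or more for 6 genes, from 1 to 10 FPKM for 24, and under 1 FPKM for 5. Bst2, Ifi47, Ifi27l2a, Ifi35, Igtp and Irf7 formed the first class, in falling order of their mean FPKM. In LSK cells without any labelled interferon treatment, 13 of the 35 genes were at 1 FPKM or more in every library of replicates 2 and 3. The tested members were low beside other genes, at a median percentile of 25.1 to 29.6 among all tested genes in those libraries. In ICAM-1-/- replicate 2, 13 of the 30 tested members reached 1 FPKM, beside 7429 of 10477 tested genes.

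**Figure D3:**
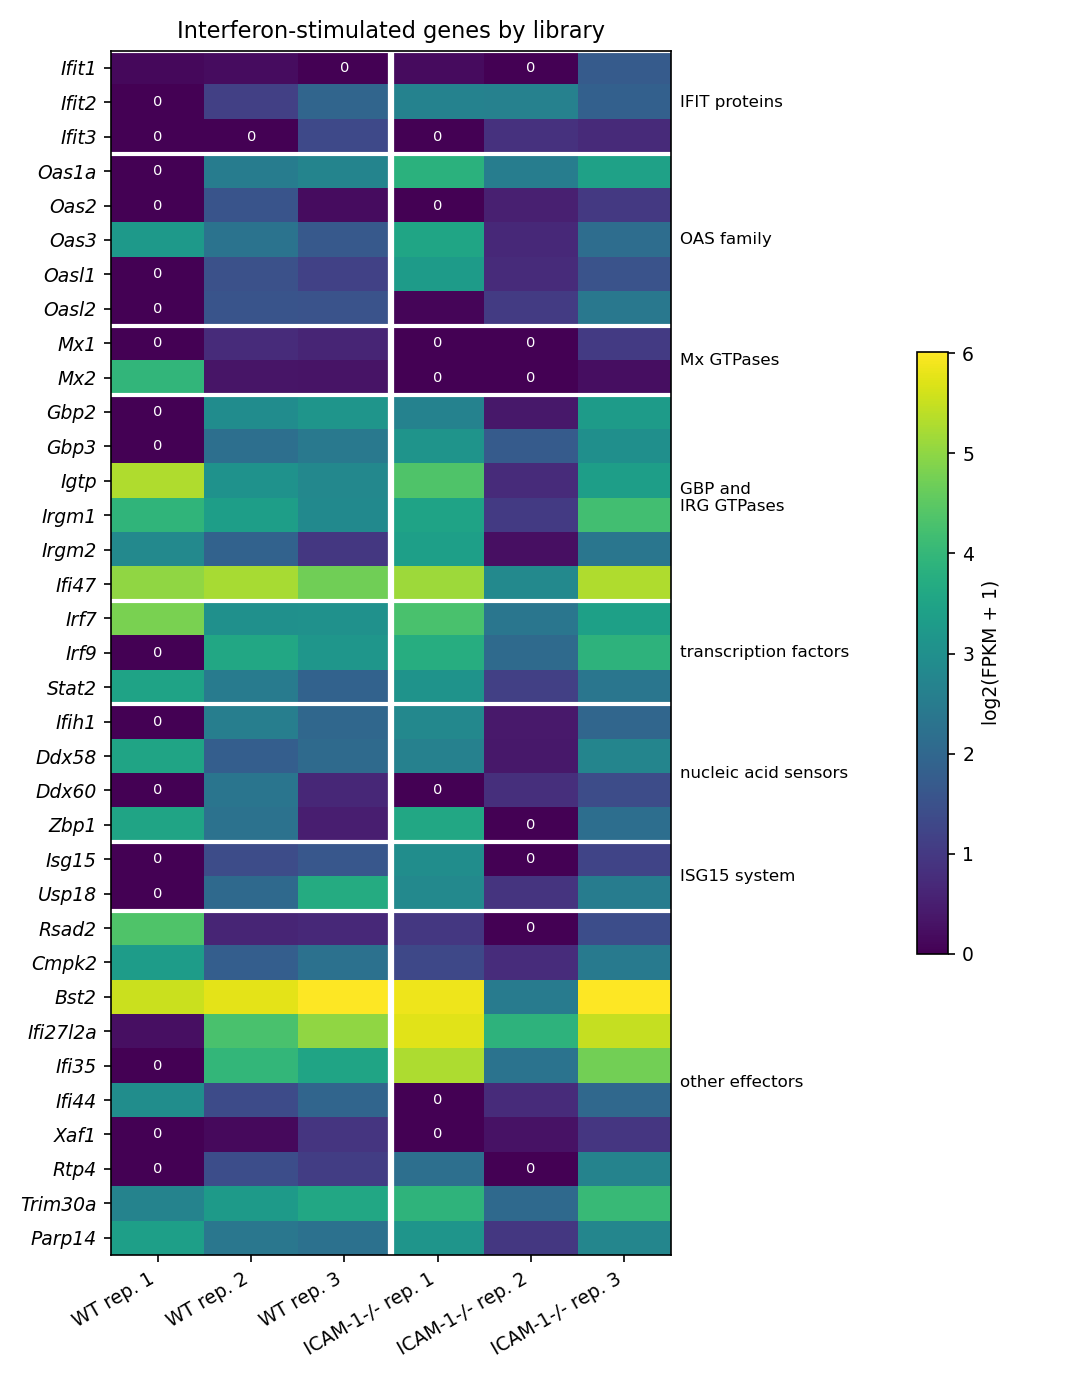
Level of each of the 35 genes (rows, grouped by role) in each of the 6 libraries (columns, WT left, ICAM-1-/- right) as log2(FPKM + 1) by colour. Cells marked 0 are values listed at 0, of which WT replicate 1 holds 17, and ICAM-1-/- replicate 2 is darker than WT replicates 2 and 3 in most rows.

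Bst2 (tetherin, which holds budding virus particles at the cell surface) was the most abundant member. It was at 45.7, 53.7 and 63.6 FPKM across WT hosts, then 57.2, 4.67 and 63.5 FPKM across ICAM-1-/- hosts. The groups overlapped, and ICAM-1-/- replicate 2 alone was low. The means were 54.3 ± 9.0 FPKM for WT and 41.8 ± 32.3 FPKM for ICAM-1-/- hosts (SD, n = 3), a log2 difference of -0.98 ± 0.95 (SE; limma adjusted p = 1.00), and without ICAM-1-/- replicate 2 the log2 difference was 0.16. Bst2 is also a marker of plasmacytoid dendritic cells, and the summed level of 6 other markers of that cell type is given beside it. This sum came to 44.0, 30.6 and 29.3 FPKM across WT hosts, then 10.9, 3.87 and 39.5 FPKM across ICAM-1-/- hosts. It was lowest in ICAM-1-/- replicate 2 as deposited, and after scaling by size factor in ICAM-1-/- replicate 1 (8.19 against 9.44 FPKM). The defining marker Siglech was listed at 0 in ICAM-1-/- replicate 2 alone. Of the 6 markers, 4 were at 0 there and 4 in WT replicate 1, which had 39.6% of all tested genes at 0. WT replicate 1 also held the highest Siglech and Tcf4 of the 6 libraries, at 23.6 and 20.4 FPKM. The macrophage marker sum was also lowest in ICAM-1-/- replicate 2, at 15.5 FPKM. The LSK marker sum was not low there, at 417 FPKM. It was 329, 413 and 654 FPKM in WT replicates 2 and 3 and ICAM-1-/- replicate 3. The neutrophil marker sum was 292 FPKM in ICAM-1-/- replicate 2, above only ICAM-1-/- replicate 1 at 139 FPKM. The part of plasmacytoid dendritic or other cells in the Bst2 values was not tested. In bulk RNA, fewer cells of a type and less RNA per cell cannot be told apart.

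Ifi27l2a, Ifi35 and Ifi44 are named for their induction by interferon, and their differences had opposite signs. Ifi27l2a was at 0.182, 18.4 and 31.3 FPKM across WT hosts, then 53.0, 13.9 and 44.1 FPKM across ICAM-1-/- hosts. WT replicate 1 was far below the other WT libraries, and the groups overlapped. Its log2 difference of 1.87 ± 1.18 (SE) was the highest of the set and did not pass (limma adjusted p = 1.00); it was 0.05 within replicates 2 and 3. With the replicate block, or without WT replicate 3, Ifi27l2a was the single gene of the 30 with an unadjusted p under 0.05, against 2.65% and 1.73% of all genes. With library weights that gene was Rtp4, a receptor-transporting protein, against 2.94% of all genes.

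Ifi35 was at 0, 14.9 and 10.4 FPKM across WT hosts, then 37.6, 3.91 and 25.8 FPKM across ICAM-1-/- hosts. Within the pair of replicate 1 libraries it was listed at 0 in one and at its highest in the other. Its log2 difference was 1.60 ± 1.20 (SE; limma adjusted p = 1.00) over all libraries and -0.23 within replicates 2 and 3. Ifi44 went the other way, at 6.73, 1.60 and 2.91 FPKM across WT hosts, then 0, 0.666 and 3.06 FPKM across ICAM-1-/- hosts. Its log2 difference was -1.18 ± 0.91 (SE; limma adjusted p = 1.00). Of the remaining effectors, Rsad2 (viperin, a radical enzyme that makes a chain-terminating nucleotide) reached 19.5 FPKM in WT replicate 1, while its remaining values lay from 0 to 1.67 FPKM. Trim30a, a TRIM-family regulator, was between 3.13 and 15.5 FPKM in all 6, and Parp14, an ADP-ribosyltransferase, between 0.973 and 9.54 FPKM.

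The oligoadenylate synthetases make the second messenger that activates RNase L, and the IFIT proteins bind foreign RNA ends. Of the 5 synthetase family genes 4 were tested, 3 with positive differences. Oas1a was at 0, 4.77 and 5.54 FPKM across WT hosts, then 13.3, 4.88 and 9.91 FPKM across ICAM-1-/- hosts. Both groups held a value near 5 FPKM, and the 2 highest values were ICAM-1-/- libraries. The log2 difference was 1.54 ± 1.00 (SE; limma adjusted p = 1.00), and 0.38 within replicates 2 and 3. Of the 31-base words of Oas1a, 68.8% also occur in other genes, mainly Oas1g, so that how reads were split between these copies bears on its value. Oas3 was between 0.624 and 10.5 FPKM and had a log2 difference of -0.28 ± 1.00 (SE).

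Ifit2 was at 0, 1.21 and 2.86 FPKM across WT hosts, then 5.30, 5.20 and 2.59 FPKM across ICAM-1-/- hosts. A pair of ICAM-1-/- libraries lay above every WT library and replicate 3 did not. Its log2 difference was 1.35 ± 0.89 (SE; limma adjusted p = 1.00) and it stayed positive in all 14 alternatives that kept the gene, between 0.59 and 2.54. Ifit1 and Ifit3 had means of 0.446 and 0.493 FPKM and were not tested, and 61.8% of the 31-base words of Ifit3 are shared with its copy Ifit3b.

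Mx1 and Mx2 are dynamin-like GTPases that block virus entry or replication, and laboratory strains such as C57BL/6 carry a defective Mx1. Mx2 was at 14.6, 0.260 and 0.244 FPKM across WT hosts, then 0, 0 and 0.164 FPKM across ICAM-1-/- hosts. The groups did not overlap, but 5 of the 6 values were at or under 0.260 FPKM. The log2 difference of -1.46 ± 1.01 (SE; limma adjusted p = 1.00) rested on WT replicate 1, and it was -0.21 within replicates 2 and 3. Mx1 was between 0 and 1.02 FPKM and was not tested.

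The guanylate-binding proteins and immunity-related GTPases act in defence against intracellular pathogens and respond mainly to interferon gamma. All 6 were tested, 3 with positive and 3 with negative differences. Ifi47, an immunity-related GTPase, was at 31.1, 36.7 and 25.1 FPKM across WT hosts, then 33.9, 6.13 and 38.1 FPKM across ICAM-1-/- hosts. All libraries but ICAM-1-/- replicate 2 lay within a narrow band. The means were 30.98 ± 5.80 and 26.1 ± 17.4 FPKM (SD, n = 3), and the log2 difference was -0.57 ± 0.82 (SE; limma adjusted p = 1.00), turning to 0.23 without ICAM-1-/- replicate 2. Igtp was at 38.5, 7.40 and 6.00 FPKM across WT hosts, then 19.6, 0.663 and 9.34 FPKM across ICAM-1-/- hosts. Its replicate 1 libraries were the highest of each group, and its log2 difference was -0.90 ± 1.11 (SE; limma adjusted p = 1.00), or 0.14 without ICAM-1-/- replicate 2. Gbp2 was listed at 0 in WT replicate 1 and was 0.315 FPKM in ICAM-1-/- replicate 2, while the remaining 4 values lay from 5.30 to 8.89 FPKM.

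Among the transcription factors of the pathway, Irf7 amplifies type I interferon production and Irf9 and Stat2 are parts of the response complex. Irf7 was at 26.8, 7.06 and 7.25 FPKM across WT hosts, then 18.4, 4.12 and 9.65 FPKM across ICAM-1-/- hosts. The replicate 1 libraries were highest in both groups. Its log2 difference was -0.27 ± 0.89 (SE; limma adjusted p = 1.00), or 0.23 without ICAM-1-/- replicate 2 and 0.32 without WT replicate 1. Stat2 was also highest in the replicate 1 library of each group, ranging from 10.1 FPKM in WT replicate 1 to 1.19 FPKM in ICAM-1-/- replicate 2, with a log2 difference of -0.43 ± 0.94 (SE). Irf9 was listed at 0 in WT replicate 1 and was between 3.23 and 13.9 FPKM in the other 5 libraries.

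Of the nucleic acid sensors, Ddx58 (RIG-I) and Ifih1 (MDA5) detect viral RNA and Zbp1 detects Z-form nucleic acid. All 4 sensor genes were tested, 1 with a positive and 3 with negative differences of -0.55 to 0.21 on the log2 scale. Each was under 1 FPKM in ICAM-1-/- replicate 2, though Ddx60 was lower still in both replicate 1 libraries and WT replicate 3. The 4 together summed to 1.38 FPKM there against 7.26 to 22.4 FPKM in the other 5 libraries (scaled by size factor, 3.37 against 7.54 to 16.9). Their log2 shifts from the mean of WT replicates 2 and 3 were -1.88 to -0.70. These lay within the 5th to 95th percentile of all tested genes (-2.49 to 1.28). Isg15, the ubiquitin-like modifier, was listed at 0 in WT replicate 1 and ICAM-1-/- replicate 2 and was between 1.35 and 6.66 FPKM in the other 4. Usp18, which removes Isg15 and restrains the receptor, was listed at 0 in WT replicate 1 and was between 0.866 and 11.98 FPKM elsewhere. Within replicates 2 and 3, Ifih1, Isg15 and Mx2 were the 3 genes of 30 whose groups did not overlap, all lower in ICAM-1-/-, where 15.9% of all tested genes did so in either direction and 5% in that one. Mx2 was at or under 0.260 FPKM in these 4 libraries and passed the filter through WT replicate 1.

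The filter left out Oas2, Ifit3, Ifit1, Mx1 and Xaf1, with means of 0.363 to 0.590 FPKM. Oas2, just outside it, was at 0, 1.96 and 0.147 FPKM across WT hosts, then 0, 0.441 and 0.997 FPKM across ICAM-1-/- hosts. Ddx60, a helicase just inside it with a mean of 1.17 FPKM, was at 0, 4.06 and 0.592 FPKM across WT hosts, then 0, 0.743 and 1.64 FPKM across ICAM-1-/- hosts.

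Among replicates 2 and 3 of both groups, ICAM-1-/- replicate 2 was the low library for almost the whole set. Against WT replicates 2 and 3 and ICAM-1-/- replicate 3 it held the lowest value for 27 of the 30 tested genes (90%), where it did so for 76.8% of all tested genes. The 35 genes summed to 63.3 FPKM in it, and to 233, 235 and 330 FPKM in WT replicates 2 and 3 and ICAM-1-/- replicate 3. After scaling each library by its size factor it was still lowest for 20 of 30 genes (66.7%), beside 44.3% of all tested genes, and the scaled sums were 154 against 213, 244 and 239 FPKM. Compared with the mean of WT replicates 2 and 3 on the log2(FPKM + 1) scale, the median shift was -1.27 for the 30 genes and -1.06 for all tested genes. This is a description of single libraries with no replicate check.

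The shift was uneven within the set. Bst2 at -3.39 and Gbp2 at -2.64 lay below the 5th percentile of all tested genes (-2.49), followed by Igtp, Ifi47 and Irgm1 at -2.20 to -2.09. Oas1a at -0.06 and Ifit2 at 1.08 were at the other end. Summed over the 6 GTPases of the guanylate-binding and immunity-related families the level was 10.6 FPKM, against 50.5 to 84.8 FPKM in WT replicates 2 and 3 and ICAM-1-/- replicate 3, and it remained lowest after scaling (25.9 against 52.4 to 61.3 FPKM). The oligoadenylate synthetase family summed to 7.68 FPKM against 11.003 to 20.6 FPKM as deposited. After scaling it summed to 18.7 FPKM against 11.4 to 14.9 FPKM, so that its order turned with the scaling. Oas1a, most of whose 31-base words occur in other genes, made up 4.88 of the 7.68 FPKM. The turn is therefore not shown for the family as a whole. Its other tested genes shifted by -1.28 (Oas3), -0.58 (Oasl1) and -0.51 (Oasl2). ICAM-1-/- replicate 3 was above both WT replicates 2 and 3 for 20 of the 30 genes (66.7%), beside 69.8% of all tested genes, with a median shift of 0.43 beside 0.42.

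**Figure D4:**
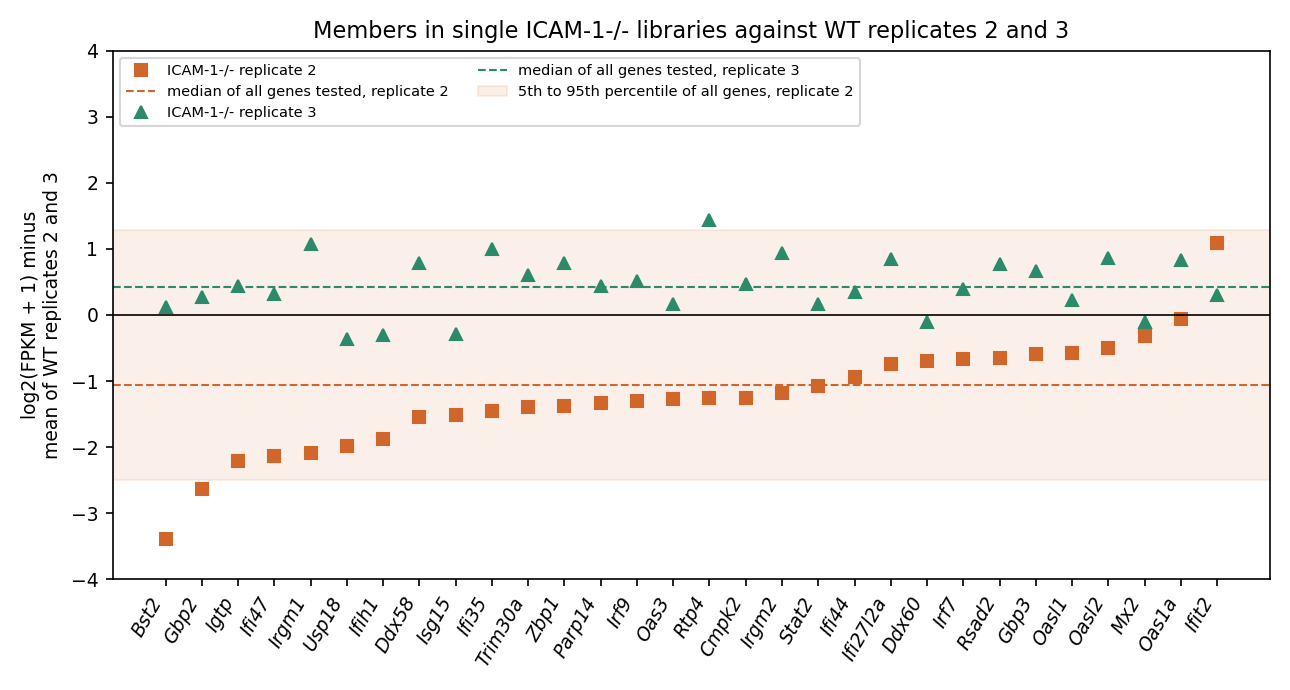
Shift of each of the 30 tested genes in ICAM-1-/- replicates 2 (squares) and 3 (triangles) from the mean of WT replicates 2 and 3, on the log2(FPKM + 1) scale (vertical axis). Dashed lines are the medians of all tested genes in each library (-1.06 and 0.42) and the band holds the 5th to 95th percentile of all tested genes in ICAM-1-/- replicate 2; Bst2 and Gbp2 lie below the band.

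The replicate 1 libraries shared high macrophage transcripts, and their levels of the members were alike only in part. Igtp, Irf7 and Stat2 were highest in the replicate 1 library of each group. Ifi35 was listed at 0 in WT replicate 1 and at 37.6 FPKM in ICAM-1-/- replicate 1. One or the other replicate 1 library held the highest value of all 6 for 20 of the 30 tested genes (66.7%), beside 50.2% of all tested genes. This was WT replicate 1 for 9 genes (30%, beside 23.8% of all tested genes). It was ICAM-1-/- replicate 1 for 11 genes (36.7%, beside 26.4%). WT replicate 1 had 17 of the 35 genes at 0 and 16 above 5 FPKM, with 2 in between. Summed over 8 macrophage markers, the replicate 1 libraries held 1756 FPKM (WT) and 798 FPKM (ICAM-1-/-), and the remaining 4 held 15.5 to 119 FPKM. Of these markers 7, among them the complement genes C1qa, C1qb and C1qc, were higher in both replicate 1 libraries than in any other, and Marco was listed at 0 in all 6. In ranges by group the sum was 38.7 to 1756 FPKM for WT and 15.5 to 798 FPKM for ICAM-1-/- hosts. The part of macrophage RNA in the values of Igtp, Irf7 and Stat2 was not tested.

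The machinery upstream of these genes was expressed, and interferon itself was listed at 0 in most libraries. Of 48 pathway genes with a value 37 were tested and 0 passed (0 with an unadjusted p under 0.05); 21 had positive and 16 negative log2 differences, with a median of 0.33. After median-of-ratios scaling 28 were positive, beside 6434 of 10308 genes in all. Within replicates 2 and 3 the number was 6, beside 3202 of 10477 genes in all. Of 12 interferon genes 9 were at 0 in every library. Ifna1 and Ifnk were above 0 in ICAM-1-/- replicate 1 alone, at 14.5 and 10.96 FPKM, and Ifng in ICAM-1-/- replicate 3 alone, at 1.25 FPKM. Their receptors were present throughout: Ifngr1, the ligand-binding chain for interferon gamma, was at 46.5, 61.7 and 52.9 FPKM across WT hosts, then 83.5, 18.4 and 59.99 FPKM across ICAM-1-/- hosts. The type I receptor chain Ifnar2 was between 7.05 and 36.5 FPKM, and Ifnar1 between 4.30 and 14.5 FPKM except in WT replicate 1, at 0.319 FPKM. Il10rb, a receptor chain shared with interferon lambda, had a log2 difference of 1.17 ± 1.11 (SE; limma adjusted p = 1.00), with 0.243 FPKM in WT replicate 1.

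The kinase Jak1 was between 8.86 and 38.4 FPKM, lowest in ICAM-1-/- replicate 2. Irf8, a factor of myeloid and dendritic cell progenitors, was the most abundant of the pathway genes. It was at 194, 156 and 129 FPKM across WT hosts, then 170, 26.3 and 136 FPKM across ICAM-1-/- hosts, a log2 difference of -0.88 ± 0.82 (SE; limma adjusted p = 1.00), with 1 low library. The corepressors Irf2bp1 and Irf2bp2 had the same low library, at 3.19 and 17.1 FPKM against at least 18.3 and 72.3 FPKM elsewhere. Their log2 differences were -0.95 ± 0.84 and -0.79 ± 0.81 (SE; limma adjusted p = 1.00 each).

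Tbk1, the kinase that activates Irf3, and Trex1, a nuclease that clears cytosolic DNA, did not share the low level of that library. Both were higher in ICAM-1-/- replicate 2 than in WT replicates 2 and 3. Trex1 was at 35.1, 23.5 and 26.4 FPKM across WT hosts, then 51.3, 38.6 and 32.9 FPKM across ICAM-1-/- hosts, a log2 difference of 0.51 ± 0.67 (SE; limma adjusted p = 1.00). Traf3, a signalling adaptor, had the smallest p of the pathway, with a log2 difference of 1.32 ± 0.93 (SE; limma adjusted p = 1.00) and 0 FPKM in WT replicate 1. Ptpn6, the phosphatase SHP-1, was between 15.6 and 62.1 FPKM with a log2 difference of -0.01 ± 0.79 (SE).

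**Figure D5:**
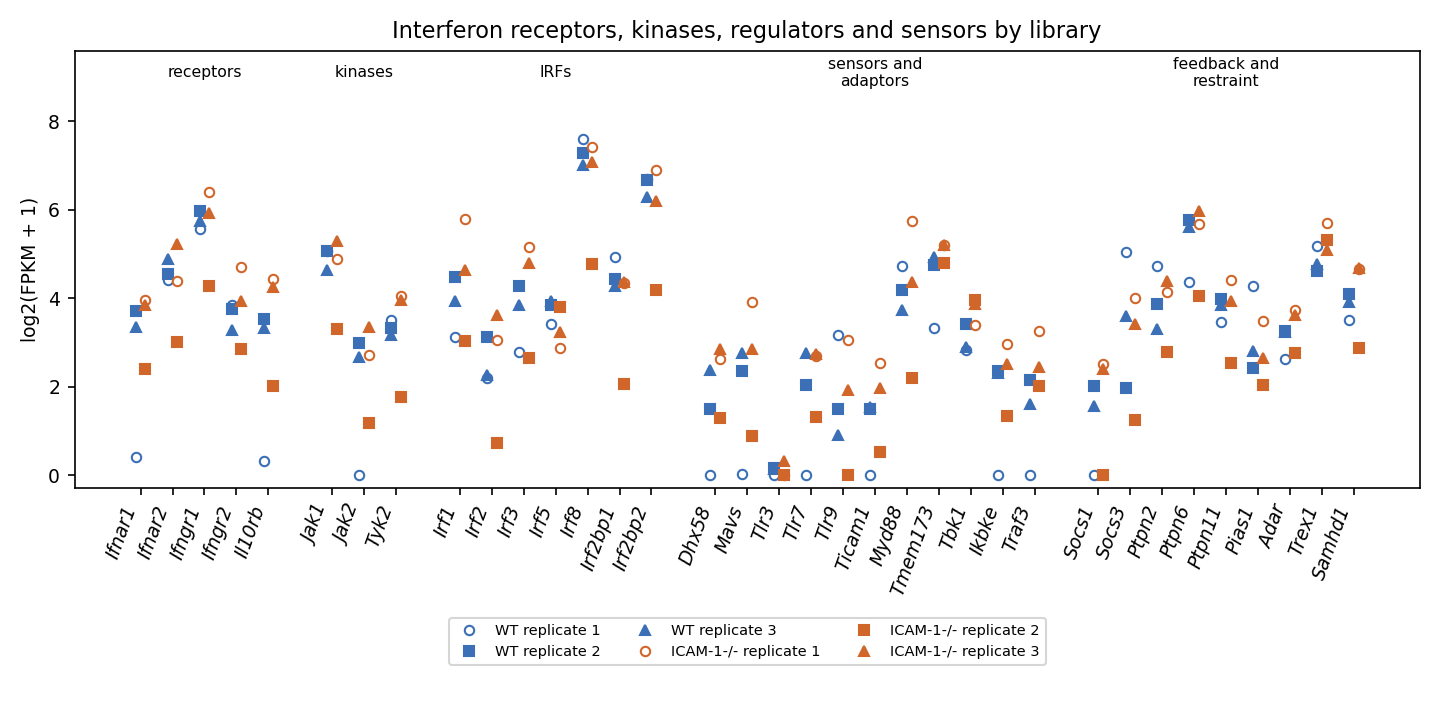
Levels of 35 genes of the interferon pathway other than the interferons, as log2(FPKM + 1) (vertical axis), in each library. Blue is WT and orange is ICAM-1-/-, with open circles for replicate 1, squares for replicate 2 and triangles for replicate 3; the orange square is the lowest ICAM-1-/- value for most genes, with Tbk1 and Trex1 among the exceptions.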

How the data were processed

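The authors deposited gene-level FPKM, 1 column for each of the 6 libraries. The submitters' processing notes list cutadapt, TopHat2 2.0.11 and Cufflinks 2.1.1. Genome build, annotation and filters were not given in the sources used here, and depth is unknown. Trizol and the Illumina TruSeq RNA kit were used, per the labels' protocols. Strand use was not stated, and 11 of the 35 genes have an exon overlapping another gene's in GENCODE M21. Outside Oas1a and Ifit3, at most 15.9% of a gene's 31-base words occur in other genes.

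The fit took log2(FPKM + 1) of the 10477 genes averaging 1 FPKM or more into limma 3.58.1 (R 4.3.3), with group as the only term and a mean-variance trend. P-values were adjusted over all genes by Benjamini-Hochberg, with a threshold of 0.05. This scale understates changes of low genes. P-values measure the spread between 3 libraries per group, which may be technical. Named by rule were genes averaging 10 FPKM or more, the 6 of smallest p and those next to the filter, and of the pathway the 6 of smallest p and the 6 of highest mean. Other genes were named after their values were seen. For 1 pathway gene, which stays in the counts over the list, values are not reported here. The members and lists were chosen with earlier results of these data known.

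The labels number replicates 1 to 3 in each group. Same-numbered libraries deviated from their group means together (r = 0.35, 0.13 and 0.31, each above 0.1), so the numbers were taken as pairing them. This comes from the data and only sets replicate 1 apart from the rest. WT replicate 2 correlated as well (0.31) with ICAM-1-/- replicate 3. ICAM-1-/- replicate 2 correlated slightly more with WT replicate 3 (0.15) than with WT replicate 2 (0.13). The pairing of replicates 2 and 3 by number is therefore an assumption of the replicate block.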

Additional observations from a re-analysis of the deposited data

How the results depend on the processing

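The 15 alternatives changed the pseudocount, filter, scaling, trend or weights, added the replicate block, kept replicates 2 and 3 alone, or left out 1 library. In none of them did limma call an interferon-stimulated or pathway gene. The number of genes called in the whole table rose from 0 to 13 with the replicate block, to 3 within replicates 2 and 3 and to 4 with library weights, and was 0 to 1 when a library was left out. With the replicate block the pairing left the median of the members at -0.04 and changed no call among them. That median moved between -0.49 and 0.60 when a library was left out, and between -0.39 and 0.45 otherwise, by less than the SD between replicates (0.61 on the log2 scale) except without ICAM-1-/- replicate 2. Median-of-ratios scaling shifted the median of all genes from 0.08 to 0.24 and left that of the members at -0.01. Of the 11 named members with a fitted value, 5 kept their sign in every alternative that kept the gene: Ifi27l2a, Oas1a, Ifit2, Mx2 and Ifi44. The other 6 changed sign in at least 1. Bst2, Ifi47, Igtp and Irf7 turned positive without ICAM-1-/- replicate 2, the last 3 also with library weights, and Irf7 also without WT replicate 1. Ifi35 turned negative within replicates 2 and 3, and Ddx60 turned positive without WT replicate 2 or without ICAM-1-/- replicate 1. The cause of these changes was not tested. With 3 libraries per group and no read depth, the fit could miss group differences well above 1 SE. In the main fit 119 of 10477 genes differed by more than 2 SE, and 0 passed the adjusted threshold. The absence of calls among the members therefore does not show equal levels.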

Other observations

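The high members of WT replicate 1 were set beside ICAM-1-/- replicate 1, the other library with high macrophage transcripts. Of the 16 members above 5 FPKM in WT replicate 1, 12 were above 5 FPKM in ICAM-1-/- replicate 1 too: Bst2, Ifi47, Igtp, Irgm1, Irgm2, Irf7, Stat2, Oas3, Zbp1, Ddx58, Trim30a and Parp14. Among these 12, Bst2, Ifi47, Igtp, Irgm1, Irf7 and Trim30a were above 5 FPKM in WT replicates 2 and 3 and ICAM-1-/- replicate 3 as well. The same overlap was not counted over all tested genes. It is therefore not shown to be particular to the members or to these libraries. The other 4 of the 16 differed. Mx2, Rsad2, Cmpk2 and Ifi44 stood at 14.6, 19.5, 9.08 and 6.73 FPKM in WT replicate 1 and at 0, 0.974, 1.45 and 0 FPKM in ICAM-1-/- replicate 1. Ifi35, Oas1a, Oasl1 and Isg15 were listed at 0 in WT replicate 1, whereas ICAM-1-/- replicate 1 held 37.6, 13.3, 8.90 and 6.66 FPKM. Such zeros do not show absence, since WT replicate 1 had 39.6% of all tested genes at 0, Gapdh included, and 43.3% of the tested members. Of the 30 tested genes 19 were higher in the ICAM-1-/- library (63.3%), beside 60% of all tested genes. These genes were picked after their values were seen, and 1 library against 1 gives no test.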
